A study of Mus musculus with 6 samples.

Results

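Proteasome genes were compared in taste cells of the circumvallate and foliate (CV/Fol) papillae of the mouse tongue at 2 and 6 months of age. The genes were taken by name as every row of the deposited table whose symbol starts with Psma to Psmg followed by a digit, which gave 49 of 23361 genes. These hold the subunits of the core particle and of its regulatory caps, the activators, 1 inhibitor and assembly chaperones. One match, Psmc3ip, encodes a cofactor of meiotic recombination and is no proteasome subunit. Of the 49 genes, 47 had a mean over both ages of at least 1 FPKM (mapped fragments scaled by transcript length and by library total), the level from which a gene was called expressed here.

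Both age groups were C57BL/6 mice with no treatment or transgene named in the labels, and their taste cells were freed from the papillae with an enzyme solution. Each age had 3 libraries, each made from cells pooled over several mice. The table holds 1 FPKM value per gene and age, the authors' value over the 3 libraries, and values of single libraries were not analysed here. No SD can be given, no difference can be set against the spread between libraries, and no test was made. All differences below are descriptions on the scale of log2(FPKM + 1), 6 months minus 2 months, and sequencing depth is unknown. In such mixed tissue, fewer cells of a type and less RNA per cell cannot be told apart.

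The proteasome degrades proteins that carry ubiquitin chains. Its 20S core is a stack of rings of alpha and beta subunits, and cleavage takes place at the beta1, beta2 and beta5 sites inside. The 19S cap binds ubiquitin chains, removes them and unfolds the protein with a ring of ATPases. In immune cells, and in other cells exposed to interferon gamma, the 3 catalytic subunits Psmb6 (beta1), Psmb7 (beta2) and Psmb5 (beta5) are replaced by Psmb9, Psmb10 and Psmb8, and the resulting immunoproteasome favours peptides that fit MHC class I molecules. Taste cells are renewed throughout life, and the proteasome is at work in every cell type of the papillae.

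The promoters of a constitutive and an immunoproteasome gene of the beta5 and beta1 sites are shown first, because these pairs had the largest ratios in level between a constitutive and an immunoproteasome gene. Each is the RefSeq window from 250 bases before to 50 bases after the transcription start (GRCm38.p6), printed 5′ to 3′ on the strand of the gene. The windows lie at chr14:54617946-54618245 on the minus strand for Psmb5, chr11:70525107-70525406 on the plus strand for Psmb6, chr17:34197945-34198244 on the plus strand for Psmb8 and chr17:34187281-34187580 on the minus strand for Psmb9. Capitals mark the letters of a searched motif.
Psmb5: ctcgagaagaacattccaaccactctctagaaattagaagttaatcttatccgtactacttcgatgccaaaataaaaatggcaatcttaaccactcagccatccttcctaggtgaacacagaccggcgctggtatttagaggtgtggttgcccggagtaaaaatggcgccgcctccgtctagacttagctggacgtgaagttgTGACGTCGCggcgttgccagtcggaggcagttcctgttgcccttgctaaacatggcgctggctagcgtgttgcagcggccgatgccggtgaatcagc
Psmb6: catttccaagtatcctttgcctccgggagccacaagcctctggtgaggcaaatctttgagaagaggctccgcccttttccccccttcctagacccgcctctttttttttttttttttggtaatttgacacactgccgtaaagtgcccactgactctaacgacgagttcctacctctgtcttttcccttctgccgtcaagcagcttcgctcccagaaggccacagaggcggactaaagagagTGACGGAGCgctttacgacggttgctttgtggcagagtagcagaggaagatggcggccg
Psmb8: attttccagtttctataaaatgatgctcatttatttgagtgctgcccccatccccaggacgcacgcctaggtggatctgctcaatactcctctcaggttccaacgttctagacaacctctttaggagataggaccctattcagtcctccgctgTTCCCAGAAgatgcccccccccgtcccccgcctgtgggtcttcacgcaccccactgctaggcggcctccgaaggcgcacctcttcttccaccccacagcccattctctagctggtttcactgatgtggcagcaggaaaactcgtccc
Psmb9: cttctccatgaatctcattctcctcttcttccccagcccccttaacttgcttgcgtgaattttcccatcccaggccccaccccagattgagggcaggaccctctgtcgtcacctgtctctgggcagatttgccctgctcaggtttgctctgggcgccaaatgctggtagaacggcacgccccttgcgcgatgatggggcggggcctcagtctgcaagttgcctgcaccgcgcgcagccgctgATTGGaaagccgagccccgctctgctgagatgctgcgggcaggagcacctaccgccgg

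Both constitutive windows held the letters TGACNNNGC of the antioxidant response element. They were TGACGTCGC 47 bases before the start of Psmb5 and TGACGGAGC 9 bases before the start used for the Psmb6 window. The RefSeq gene model of Psmb6 begins at 70525324, upstream of that start, so its match lies within the model. Factors of the family of Nfe2l1, known as a regulator of proteasome genes, bind such elements. Neither immunoproteasome window held these letters. The Psmb8 window held TTCCCAGAA 97 bases before the start, a match to the gamma-activated site TTCNNNGAA, an element of interferon gamma response genes, and the Psmb9 window held only a CCAAT box on the other strand, 8 bases before the start. The windows of Psmb10, Psme1 and Psme2 were searched too, and among them only Psme1 had a match, to the core GAAANNGAA of the interferon-stimulated response element on the other strand.

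Windows were at hand for 41 of the 49 members, and the 4 motifs were searched on both strands. The antioxidant response element letters were found in 6 members (14.6%) against 3781 of the 27025 genes with a window, and the CCAAT box in 15 members (36.6%) against 41.1%. The core of the interferon-stimulated response element was found in 7 members (17.1%) against 9.76%, and the gamma-activated site in 3 (7.32%) against 9.55%. Of the 9250 expressed genes with a window, 17.1%, 42.6%, 8.24% and 8.23% held the 4 motifs in this order. By class, the CCAAT box was found in 5 of 7 alpha genes, and the antioxidant response element letters in both constitutive catalytic genes with a window and in 0 of 7 alpha genes. Both structural beta genes with a window held the core of the interferon-stimulated response element, and 0 of 3 immunoproteasome genes did. The gamma-activated site was found in 1 of 3 immunoproteasome genes, 1 of 9 cap subunits that are no ATPases and 1 of 6 assembly chaperones. A match is a run of letters and not a shown binding site.

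The constitutive 20S core genes were among the more abundant transcripts at both ages. The 14 genes lay between the 91.4 and 96.5 percentiles of the 12652 expressed genes, with a median of 149.0 FPKM at 2 months against 138.5 FPKM at 6 months. Their levels were close to each other, since the highest was 2.42 times the lowest at 2 months and 2.38 times at 6 months. Subunits that enter the particle in equal number thus differed by less than 3-fold in FPKM, a level per transcript length.

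Among the 7 alpha genes, which form the outer rings and the gate of the core, Psma7 was highest with 182.8 FPKM at 2 months against 177.4 FPKM at 6 months. Psma5 was lowest, with 82.2 FPKM at 2 months against 77.1 FPKM at 6 months. The other 5 alpha genes lay between them at both ages. Psma8, which replaces Psma7 in the particle of the testis, was listed at 0.00878 FPKM at 2 months and at 0 at 6 months, so the table shows almost none of the germ cell form.

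The 4 structural beta genes, whose products hold the inner rings together without cleaving, had the highest median of the classes. Psmb4 was the most abundant member of all, with 198.6 FPKM at 2 months against 183.4 FPKM at 6 months. Psmb2 was the lowest of the 4, with 135.4 FPKM at 2 months against 132.5 FPKM at 6 months. The 3 constitutive catalytic genes were at a like level. Psmb5, the chymotrypsin-like subunit, had 176.0 and 159.7 FPKM, Psmb6, the caspase-like subunit, had 141.9 and 128.2 FPKM, and Psmb7, the trypsin-like subunit, had 155.5 and 156.4 FPKM. Psmb11, the beta5 subunit of thymic cortical epithelium, had 0.268 FPKM at 2 months against 0.197 FPKM at 6 months, against which Psmb5 was 656 and 811 times higher.

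**Figure D1:**
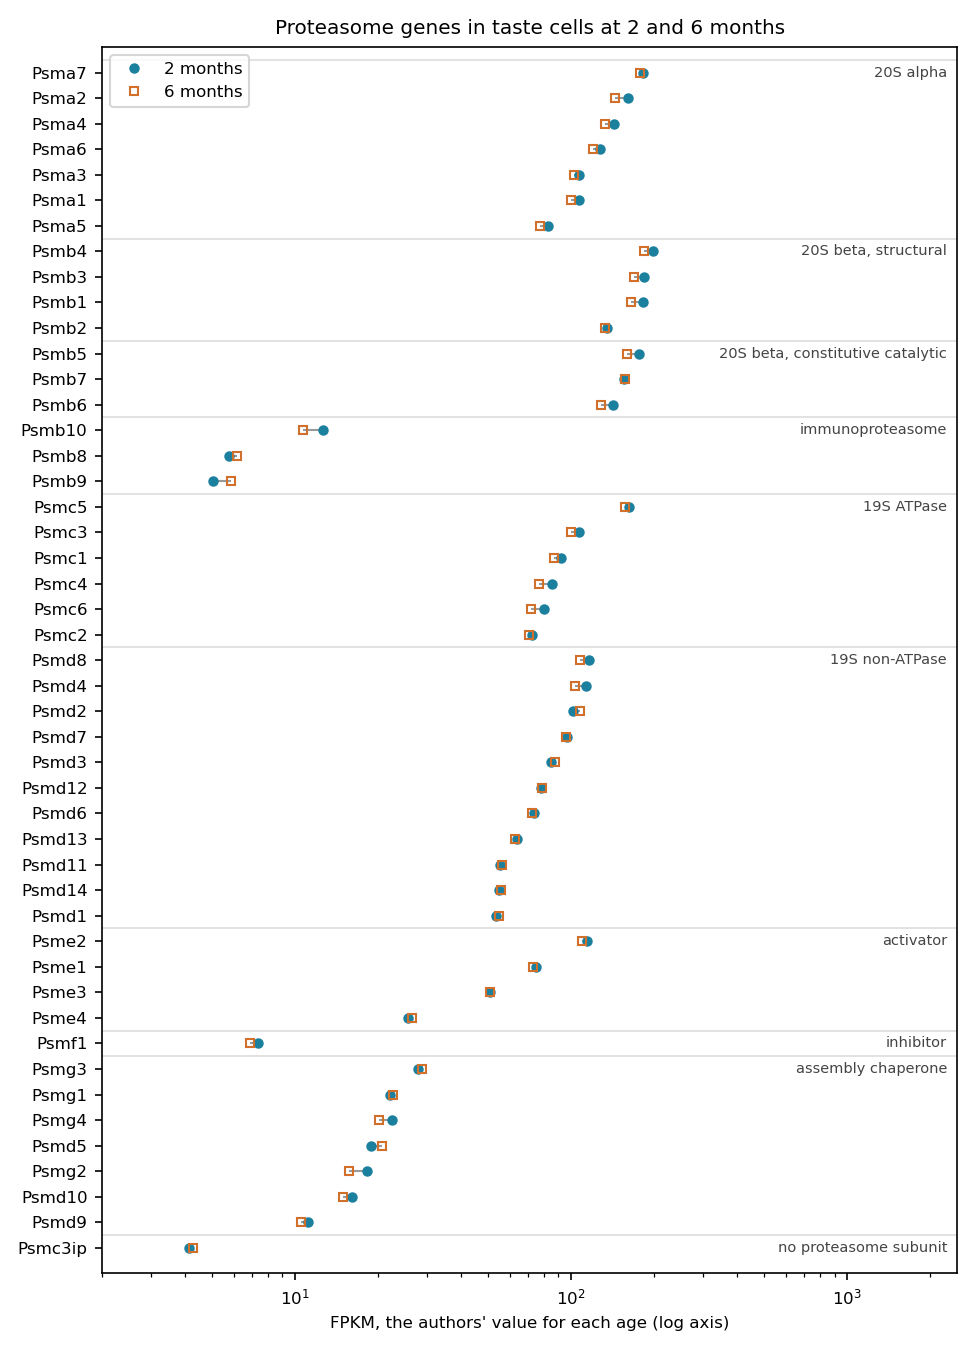
FPKM of the 47 expressed members at 2 months (filled circles) and 6 months (open squares) on a log axis, 1 authors' value per age with no error, grouped by class and ordered by level. The 31 core and cap genes taken by name lie between 53.3 and 198.6 FPKM, while the immunoproteasome genes Psmb8, Psmb9 and Psmb10 lie between 5.04 and 12.6 FPKM.

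The genes of the 19S cap had lower levels than those of the core. Their median was 84.7 FPKM at 2 months against 78.1 FPKM at 6 months over 17 genes, so that the median of the core genes was 1.76 times that of the cap genes at 2 months and 1.77 times at 6 months. Among the 6 ATPases of the cap, Psmc5 was highest with 161.5 and 156.3 FPKM. Psmc2 was lowest with 72.1 and 70.6 FPKM, a spread of 2.24-fold at 2 months and 2.22-fold at 6 months.

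The 11 other cap subunits ran from Psmd8, a subunit of the lid, with 116.5 and 107.7 FPKM, down to Psmd1, the large scaffold of the base, with 53.3 and 54.9 FPKM. Psmd4, the ubiquitin receptor, had 113.1 FPKM at 2 months against 103.3 FPKM at 6 months. Psmd14, the enzyme that cuts off the ubiquitin chain, had 54.8 and 55.6 FPKM and was thus near the low end. All 31 core and cap genes together spanned 3.73-fold at 2 months and 3.34-fold at 6 months.

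For comparison, 2 other complexes of several subunits were read in the same way. The 8 genes of TRiC, the ring that folds actin and tubulin, had a median of 111.1 FPKM at 2 months and a highest level 1.77 times the lowest. The 9 genes of the COP9 signalosome, a relative of the 19S lid, had a median of 44.9 FPKM and spanned 8.35-fold. The COP9 span rests on its lowest gene, Cops7b, with 10.8 FPKM at 2 months, where the next lowest, Cops8, had 28.3 FPKM. With Cops7b included, the spread among the 31 core and cap genes lay between those of the 2 complexes. This order depends on that 1 gene. Between the ages, TRiC genes differed from -0.13 in Cct8 to 0.05 in Cct6a, and COP9 genes from -0.17 in Cops2 to 0.10 in Cops7b.

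The immunoproteasome genes stood well below their constitutive counterparts at both ages. At the beta1 site, Psmb9 had 5.04 FPKM at 2 months against 5.86 FPKM at 6 months, 28.1 and 21.9 times below Psmb6. At the beta5 site, Psmb8 had 5.74 and 6.17 FPKM, 30.7 and 25.9 times below Psmb5. At the beta2 site, Psmb10 had 12.6 and 10.7 FPKM, 12.3 and 14.6 times below Psmb7, so it was the highest of the 3 and the closest to its counterpart.

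Summed over the 3 sites, the immunoproteasome genes made up 4.71% of the FPKM of the 6 catalytic genes at 2 months and 4.87% at 6 months. The sums behind these shares were 23.4 and 22.7 FPKM for the immunoproteasome genes and 473.4 and 444.4 FPKM for the constitutive ones. Per site, the immunoproteasome share went from 3.43% to 4.37% at beta1, from 3.16% to 3.72% at beta5 and from 7.50% to 6.41% at beta2. The log2 ratio of the immunoproteasome to the constitutive gene was thus higher at 6 months by 0.36 at beta1 and by 0.25 at beta5, and fell by 0.24 at beta2, differences that no scaling between the ages can alter. Without replicate values these opposite directions could not be set against an error.

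**Figure D2:**
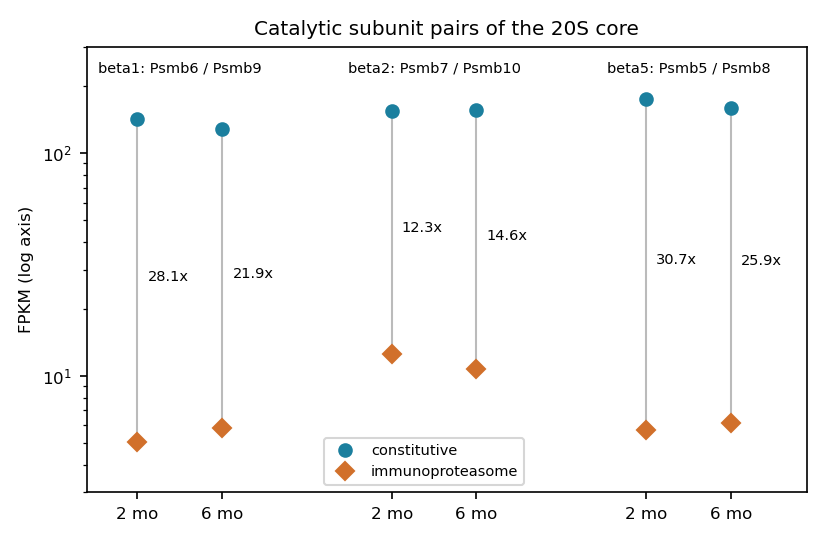
FPKM on a log axis of the constitutive (circles) and immunoproteasome (diamonds) gene of each catalytic site at 2 and 6 months, 1 authors' value per age with no error, with the ratio of the pair beside the line. The ratio is lower at 6 months at beta1 (28.1 to 21.9) and beta5 (30.7 to 25.9) and higher at beta2 (12.3 to 14.6).

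Psmb8 and Psmb9 are neighbours of the peptide transporter genes within the MHC region of chromosome 17, while Psmb10 lies apart on chromosome 8 (105935728 to 105938392 in GRCm38). In RefSeq annotation of GRCm38, Psmb9 (34182030 to 34187330, minus strand), Tap1 (34187556 to 34197225), Psmb8 (34198195 to 34201454) and Tap2 (34204479 to 34216321, all 3 on the plus strand) follow each other within 34.3 kb. The starts of Psmb9 and Tap1 are 225 bases apart on opposite strands, and the printed Psmb9 window reaches the start of Tap1. The 4 neighbours had like levels and all had higher values at 6 months as deposited, as did 5854 of the 12652 expressed genes. The scalings given below raise 6 month values, so genes higher as deposited stay higher. Tap1 had 8.61 FPKM at 2 months against 9.87 FPKM at 6 months, a difference of 0.18, as in Psmb9. Tap2 had 11.1 and 13.2 FPKM, a difference of 0.24, and Psmb8 differed by 0.09. GENCODE models of Psmb9 and Tap1 overlap on opposite strands, but the RefSeq models given above do not. According to the paper, reads were mapped with a RefSeq annotation. The counting is not stated to use strand, and whether these genes share reads was not tested.

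Leukocytes carry the immunoproteasome constitutively, and their markers were read beside these values. Of 14 leukocyte markers, 9 were expressed, and 7 of the 9 had higher values at 6 months as deposited, with a median difference of 0.06. The other 2 (22.2%) were lower as deposited and with either scaling. Of all expressed genes, 53.7% were lower as deposited and 31.2% with both ages scaled to the same sum without small RNA genes. The summed level of the 9 markers was 457.4 FPKM at 2 months against 421.9 FPKM at 6 months, of which most was Lyz2, with 293.3 and 253.7 FPKM. Among the 9, Cd68, a macrophage marker, had the most negative difference at -0.44, and Csf1r the most positive at 0.22. Ptprc, the marker of all leukocytes, had 1.54 and 1.65 FPKM, and none of the 14 was listed at 0. The T cell markers Cd3e (0.370 and 0.822 FPKM), Cd8a (0.117 and 0.267 FPKM) and Cd4 (0.184 and 0.168 FPKM) were under 1 FPKM. So was the B cell marker Cd79a (0.326 and 0.141 FPKM). Cd3e differed by 0.41 and Cd4 by -0.02. The part of leukocytes in the immunoproteasome values was not tested.

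The taste markers were present, with all 8 expressed and Gnat3 highest at 84.7 FPKM at 2 months against 79.9 FPKM at 6 months. Their differences ran from -0.19 in Entpd2 to 0.47 in the taste receptor gene Tas1r3, with a median of 0.10. Keratins of the epithelium were also high, since Krt5 had 2180 and 1962 FPKM. Of 6 keratinocyte markers, 5 were expressed, and 4 of the 5 were lower at 6 months under each scaling, with a median difference of -0.82 as deposited. Krt10 and Lor, markers of differentiated keratinocytes, had 149.7 and 70.5 FPKM and 1292 and 732.9 FPKM, differences of -1.08 and -0.82. Krt14 of the basal layer differed by 0.25 in the other direction. Krt4 was listed at 7334 FPKM at 2 months and at 0 at 6 months, and Krt13 at 0 at both ages. The summed level of the expressed keratinocyte markers was 12242 FPKM at 2 months against 4298 FPKM at 6 months. Krt4 was the larger part of it at 2 months, and the count, median and sum all include its 0 at 6 months. Whether this 0 is a measured level was not tested. The 4 expressed of 5 skeletal muscle markers were all higher at 6 months, from a summed 7.11 FPKM to 16.4 FPKM with Tnnc2 differing most (1.07), and 0 of 3 endothelial markers was expressed. Of 5 fibroblast markers, 2 were expressed, with Dcn at 42.03 and 27.3 FPKM. The part of these cell types in the proteasome values was not tested.

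Between the ages, differences in proteasome genes were small. Of the 47 expressed members, 0 differed by 1.5-fold or more and 0 by 1.2-fold or more, where 2.77% and 10.8% of all expressed genes did. Among 1265 other genes with a mean of 50 to 200 FPKM, the range of most core and cap genes, 10.4% differed by 1.2-fold or more. The extremes among the members were Psmb10, lower by 0.22, and Psmb9, higher by 0.18, both immunoproteasome genes at low FPKM.

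The members had lower values at 6 months in 32 of 47 cases as deposited, in 26 with both ages scaled to the same upper quartile and in 19 with both scaled to the same sum without small RNA genes. Their median difference was -0.05 as deposited, -0.01 with the same upper quartile and 0.03 with the same sum. As deposited, 53.7% of all expressed genes had lower values at 6 months, with a median difference of -0.01 and quartiles of -0.10 and 0.08, and 68.4% of the other genes with a mean of 50 to 200 FPKM did, with a median of -0.06. The members' share as deposited was 68.1%. With the same upper quartile, 55.3% of members were lower, against 55.8% of these other genes and 42.3% of all expressed genes. With the same sum, the shares were 40.4%, 41.5% and 31.2%. The members' shares were thus near those of other genes of like level, and are no result about the proteasome.

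Within the complex, the classes were not alike. For reference, 53.7% of all expressed genes were lower as deposited, 42.3% with the same upper quartile and 31.2% with the same sum. Among the other genes with a mean of 50 to 200 FPKM, 68.4%, 55.8% and 41.5% were lower in the same order. Under the values as deposited, 13 of the 14 constitutive core genes were lower at 6 months, against 12 with the same upper quartile and 9 with the same sum, and their median was -0.10 as deposited, -0.05 and -0.01. Of the 6 cap ATPases, 6 were lower as deposited with a median of -0.09, but 5 with the same upper quartile and 3 with the same sum. Of the 11 other cap subunits, 5 were lower and 6 higher as deposited with a median of 0.01, and 2 were lower with either scaling. The order of the class medians, core and ATPases below the other cap subunits, is the same under each scaling, which moves these genes nearly alike.

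The named genes below do not reach both ends of each class. The alpha genes ran from -0.15 to -0.04 as deposited, and the other cap subunits from -0.13 to 0.09. In the core, Psmb6 differed by -0.15, Psmb5 by -0.14 and Psmb4 by -0.11, while Psmb7 differed by 0.01 as deposited. Psma5 differed by -0.09. Psma7 differed by -0.04 as deposited and turned positive with the same sum. In the cap, Psmc6, one of the ATPases, had 79.9 FPKM at 2 months against 71.4 FPKM at 6 months. Its difference of -0.16 was the largest among the 31 core and cap genes taken by name. The largest in the other direction was in Psmd2, a scaffold of the base that binds ubiquitin-like domains, with 101.2 and 107.5 FPKM and a difference of 0.09.

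**Figure D3:**
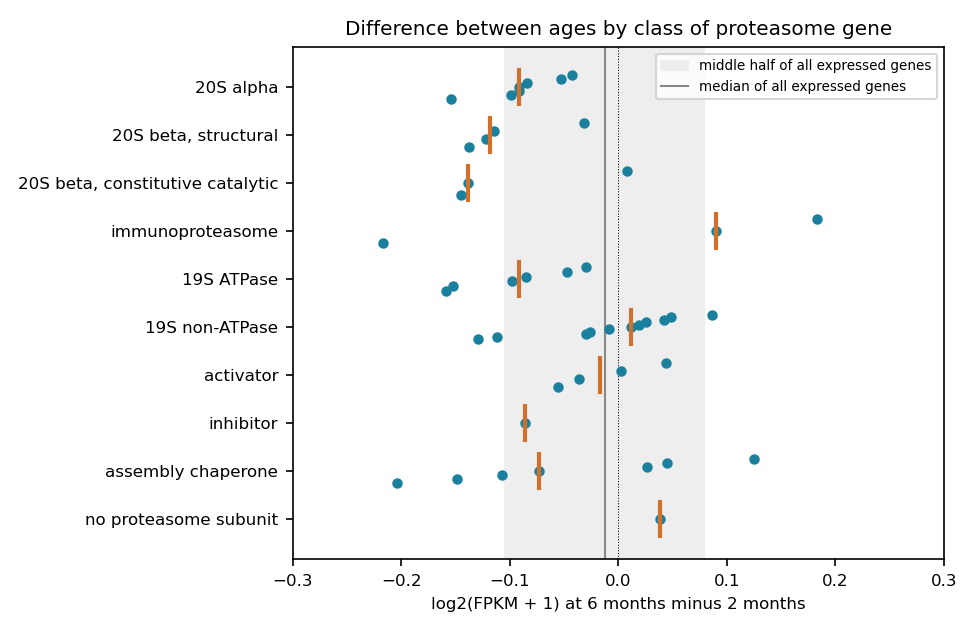
Difference between ages on the log2(FPKM + 1) scale (6 months minus 2 months, as deposited) for each expressed member by class, where orange bars mark class medians and the grey band spans the quartiles of all expressed genes. The alpha, structural beta and ATPase genes all lie below 0, and the 11 other cap subunits lie on both sides with a median of 0.01.

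Genes with short transcripts tended to have lower values at 6 months across the whole table, so length was read beside the classes. Over the 1254 other genes with a mean of 50 to 200 FPKM and a known length, Spearman's rho between transcript length and the difference was 0.41, and over the 47 members it was 0.32. Between mean level and the difference, rho was -0.11 over the other genes and -0.36 over the members. Over the 31 core and cap genes, rho was 0.34 with length and -0.47 with level. These correlations are across genes of the same libraries, which are not replicates. The median length was 1163 bases for constitutive core genes, 1614 for the ATPases and 1904 for the other cap subunits, in the longest RefSeq-paired model of each gene.

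In the same group of 1254 genes, the median difference was -0.14 for transcripts under 1000 bases, -0.10 from 1000 to under 1500 bases and -0.05 from 2000 to under 3000 bases, and it was 0.03 from 4000 bases upward. The expressed members had medians of -0.09 (8 genes), -0.09 (17 genes), -0.03 (8 genes) and 0.08 (2 genes) in these ranges. Set against the median of these genes in their own length range, 7 of the 14 core genes were below and the median distance was 0.00. Set against all other expressed genes of the same length range, 11 of the 14 were below and the median distance was -0.02. The 6 ATPases had 4 below against either reference, with median distances of -0.02 and -0.04. The 11 other cap subunits had 2 below against either, with median distances of 0.07 and 0.05. How far length or level accounts for the class differences was not tested.

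**Figure D4:**
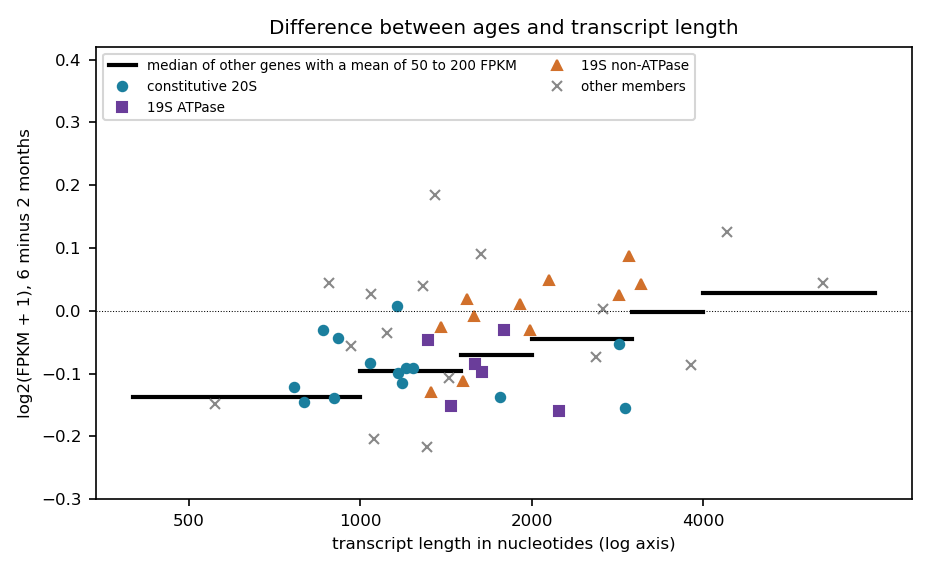
Difference between ages on the log2(FPKM + 1) scale against transcript length in bases (log axis) for the 47 expressed members by class, with horizontal bars for the median of other genes with a mean of 50 to 200 FPKM in each length range. The bars run from -0.14 for the shortest to 0.03 for the longest transcripts, and 9 of the 11 cap subunits that are no ATPases lie above the bar of their range.

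The activators open the core without ubiquitin. Psme1 and Psme2, the interferon-inducible subunits of PA28, had 74.8 and 72.9 FPKM and 114.2 and 109.9 FPKM, so that these partners stood far above the immunoproteasome genes. Psme2 was at 1.53 times Psme1 at 2 months and 1.51 times at 6 months. Psme3, the nuclear PA28 gamma, had 50.9 FPKM at 2 months against 51.0 FPKM at 6 months, and Psme4, the PA200 cap, was lowest at 25.6 and 26.4 FPKM. The differences ran from -0.06 in Psme2 to 0.04 in Psme4, with a median of -0.02 as deposited that turned to 0.03 with the same upper quartile and 0.07 with the same sum. Psmf1, which binds and can inhibit the core, had 7.32 and 6.84 FPKM, a difference of -0.09.

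The 7 assembly chaperones among the members had a median of 18.9 FPKM at 2 months and 20.2 FPKM at 6 months, below the medians of the core and cap classes. The 4 chaperones of the alpha ring ran from Psmg3, the highest at 27.8 and 28.7 FPKM, to Psmg2, which had 18.2 FPKM at 2 months against 15.7 FPKM at 6 months. Psmg2 was lower at 6 months by 0.20, the second largest negative difference among the members, whereas its partner Psmg1 had 22.1 and 22.6 FPKM. Among the 3 chaperones of the cap base, Psmd5 had 18.9 and 20.7 FPKM, a difference of 0.13 that was second to Psmb9 in the positive direction. Psmd9 was lowest with 11.1 and 10.5 FPKM. The median difference of the 7 was -0.07 as deposited, and 0.01 with the same sum.

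Genes that work with the proteasome but have other names were read from a separate list. Of 10 partners, 9 were listed in the data, and all 9 were expressed. Shfm1, a small subunit of the lid, was highest, with 498.1 FPKM at 2 months against 437.0 FPKM at 6 months, the most negative difference of the list at -0.19. It was not among the 31 core and cap genes taken by name, and its level and its difference lie outside their ranges. AI314180 (Ecm29), which ties cap and core together, differed most in the other direction, with 21.5 and 24.5 FPKM. Pomp, the chaperone of the beta ring, had 239.3 and 226.4 FPKM, more than any beta subunit. As deposited, 6 of the 9 were lower with a median of -0.06, and 3 were lower with the same sum. The shares over all expressed genes were 53.7% and 31.2%.

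The supply of ubiquitin and its delivery were also measured. Among 6 ubiquitin and E1 genes, 4 were lower as deposited and 3 with the same sum, and the most positive difference was that of the E1 enzyme Uba6, with 6.89 and 8.13 FPKM. Among the 8 genes of p97 and the shuttle factors that bring ubiquitylated proteins to the cap, 6 were higher as deposited, with a median of 0.04. The other 2 (25%) were lower as deposited and with either scaling. Of all expressed genes, 53.7% were lower as deposited and 31.2% with the same sum. Ubqln2 differed by -0.14 and Nploc4 by 0.11. Of the 4 genes that control transcription of proteasome genes, Nfe2l1 had 62.6 and 61.7 FPKM and Ddi2, the protease that activates it, had 23.2 and 24.8 FPKM, and their median was 0.06 as deposited.

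MHC class I molecules display peptides made by the proteasome, and this list spread more widely than the proteasome genes. Of its 10 expressed genes, 3 differed by 1.2-fold or more, and 5 were lower and 5 higher as deposited. The endoplasmic reticulum chaperone Calr had 441.0 and 331.2 FPKM, a difference of -0.41, and B2m, the light chain, had 123.4 and 161.3 FPKM, a difference of 0.38. Of 12 interferon signalling genes, 11 were expressed, and 8 of these were lower as deposited against 4 with the same upper quartile and 3 with the same sum. The shares over all expressed genes were 53.7%, 42.3% and 31.2%. Ifnar2, a receptor chain for type I interferon, had 9.41 and 7.36 FPKM, a difference of -0.32. Jak2, the kinase bound to the interferon gamma receptor, differed by 0.12.

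**Figure D5:**
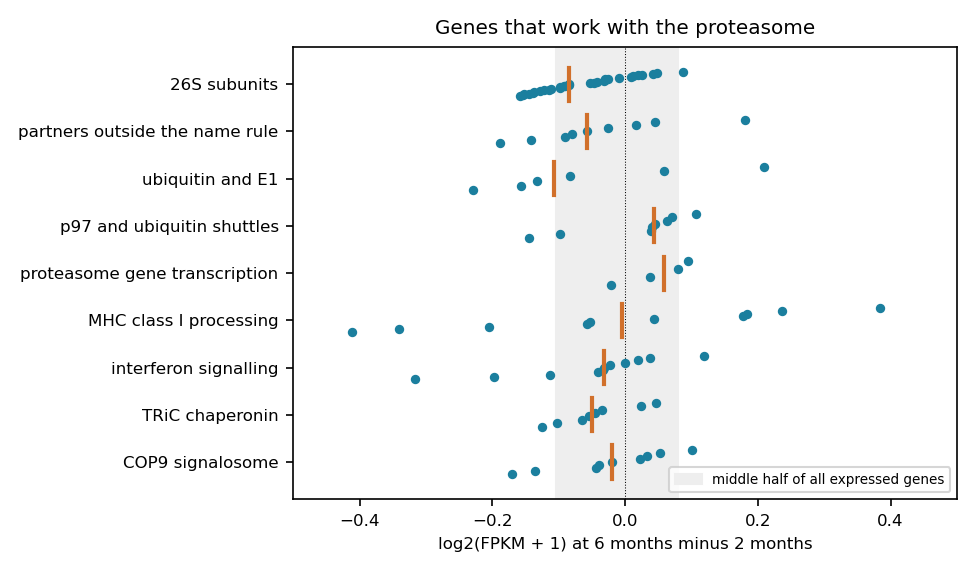
Difference between ages on the log2(FPKM + 1) scale (6 months minus 2 months, as deposited) for the 31 core and cap genes (26S subunits) and for genes that work with them, 1 point per expressed gene, where orange bars mark list medians and the grey band spans the quartiles of all expressed genes. MHC class I processing genes run from -0.41 to 0.38, while core and cap genes run from -0.16 to 0.09.

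Some members overlap other genes in position. By whole gene spans of GENCODE, introns included, 12 members overlap another protein-coding gene. Among them are Psmb7 with Nek6, Psmb9 with Tap1 and Psme1 with Emc9. The share of all genes with such an overlap was not counted. The paper names a RefSeq annotation for mapping, and overlaps were not read from it. The counting is not stated to use strand, and whether reads are shared was not tested. The 49 members held 0.576% of the summed FPKM of all genes at 2 months and 0.573% at 6 months.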

How the data were processed

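RNA of CV/Fol taste cells of C57BL/6 mice was sequenced after poly(A) selection, with 3 pooled libraries at 2 months and 3 at 6 months. According to the submitters' processing notes, the authors mapped reads with TopHat2 2.0.7 to GRCm38/mm10 and used Cufflinks 2.1.1 and Cuffdiff. The deposited table gives 1 FPKM value per gene and age. Its library normalization is not given in the sources used here, and depth is unknown. A column of p-values from the authors' own comparison was not used. The column of each age was read from the group letters of the table, which match the sample titles. The design text names 3 and 6 months in one place, and the labels 2 and 6 months were followed.

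Differences were log2(FPKM + 1) at 6 months minus 2 months, which understates those of low genes. Expression was called from a mean of 1 FPKM upward, and 1.5-fold and 1.2-fold on that scale were used as limits. No test was possible with 1 value per age, so members are described by counts and medians beside all expressed genes. Named members were the 6 catalytic beta genes, the activators and inhibitor, the highest and lowest of each class, the 3 largest differences in each direction and every member under 1 FPKM; of other lists, the largest difference in each direction, except for a gene that is not reported here. Psmd2, Psmd4, Psmd14, Psmg1, Pomp, Nfe2l1 and the neighbours of Psmb9 were named for their role after their values were seen, as were the marker genes. The members and lists were chosen with earlier results of these data known.

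Transcript lengths were those of the longest GENCODE protein-coding model paired with RefSeq, known for all 49 members and 98.5% of expressed genes. Promoter windows and positions came from RefSeq tables of GRCm38. Alternatives were a pseudocount of 0.1, no filter or a mean of at least 5 FPKM, and scaling the 6 month values by 1.03 (same upper quartile) or 1.06 (same sum over genes that are no small RNA genes and are above 0 at both ages). The last restriction, the pseudocount on pair ratios, and the comparison with genes of like level and length were chosen after seeing the data. The script that counts genes past a fold was tested on simulated data with known folds, which checks the arithmetic and is no test of a difference. The software was Python 3.11.15 with numpy 2.4.6, pandas 2.3.3 and matplotlib 3.10.9.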

Additional observations from a re-analysis of the deposited data

How the results depend on the processing

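No paired analysis was possible because 1 value per age was used and no values of single libraries, and leaving out each replicate could not be run for the same reason. A median was counted as kept where it moved by less than 0.1 on the log2 scale and kept its sign. The pseudocount of 0.1 FPKM, the absence of a filter and the mean of at least 5 FPKM kept every class median and the median of all members. With both ages scaled to the same upper quartile, the median of the activators moved from -0.02 to 0.0255, and the other class medians were kept. With both ages scaled to the same sum without small RNA genes, the median of all members moved to 0.0345, that of the activators to 0.0705 and that of the assembly chaperones to 0.00754, and members lower at 6 months went from 32 to 19. These scalings moved the median of all expressed genes from -0.01 to 0.03 and 0.07, and the small RNA genes behind the second took 8.74% of all FPKM at 2 months against 10.9% at 6 months. Taken as the median of the 3 pairwise shares, the immunoproteasome share was 3.43% at 2 months and 4.37% at 6 months in place of 4.71% and 4.87%. The number of members past 1.5-fold was 0 under each alternative. Of 49 single members, 6 changed sign with the same upper quartile and 13 with the same sum, and with the pseudocount of 0.1 FPKM the 2 members under 1 FPKM moved by over 0.1 (Psma8 to -0.12, Psmb11 to -0.31). The pair ratios kept their directions with a pseudocount of 1 FPKM (0.33, -0.22 and 0.23). Depth and the spread between libraries limit every value here and are unknown.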

Other observations

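Nlrc5, which activates transcription of MHC class I genes and had a mean under 1 FPKM, had 0.485 FPKM at 2 months against 1.08 FPKM at 6 months. Krt6a, an epithelial keratin, was listed at 0 at 2 months and at 3391 FPKM at 6 months, and Krt4 showed the opposite. Both were chosen after their values were seen, and the cause was not tested.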
